A study of Mus musculus with 4 samples.

Results

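Enterocytes with high ribosomal protein RNA were taken from single-cell libraries of the neonatal mouse small intestine. Enterocytes are the absorptive cells of the epithelium. A cell was counted as an enterocyte when it had 1000 to 6000 detected genes, at least 2000 UMIs (unique molecular identifiers, each marking 1 captured RNA molecule) and a mitochondrial share under 20%. It also had to hold at least 3 of the 6 markers Fabp1, Fabp2, Apoa1, Apoa4, Alpi and Lct and fewer than 2 of the 5 cycling genes Mki67, Top2a, Ube2c, Cdk1 and Birc5. In each library the 10% of these cells with the highest share of UMIs from cytosolic ribosomal protein genes were selected on that share as the members, called high-share enterocytes here. The share was summed over 83 genes whose symbols start with Rpl or Rps and a digit. The members numbered 2694 of 26941 enterocytes and of 36202 called cells, and the 2694 enterocytes with the lowest share, 10% of each library, were the comparison.

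Each of 2 wild-type mice, aged 6 days after birth (P6), gave 1 library of jejunum and 1 of ileum; the study's methods give C57BL/6J as its wild-type line. Mouse 1 was labelled male and batch 1, and mouse 2 was labelled female and batch 2, so that mouse, labelled sex and batch cannot be told apart. All cells were epithelium released with EDTA and dispase and captured with the PIPseq 3′ kit, and no group was treated. The libraries held 57951874 to 131400239 UMIs, and the high-share and low-share enterocytes of a library, summed, held 3051037 to 7067566 UMIs outside the selecting genes. The most barcodes that a pair of libraries shared was 1.

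Cytosolic ribosomal proteins make up the small and large subunits of the ribosome and are made in matched amounts. Most of their messages begin with a terminal oligopyrimidine (TOP) tract, a C followed by a run of C and T, through which mTOR signalling and LARP1 set their translation and stability. In the small intestine new enterocytes leave the crypt and move up the villus until they are shed at the tip. In adult mice the enterocytes at the villus base are known for translation and antimicrobial genes, those of the middle for nutrient absorption and those at the tip for adhesion and purine metabolism genes. Before weaning, enterocytes also take up milk proteins by endocytosis and digest them in large lysosomes.

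The selection itself was as follows and is given as a description, since these values chose the members. The median share over all enterocytes was 4.09% in ileum of mouse 1, 3.56% in ileum of mouse 2, 2.70% in jejunum of mouse 1 and 2.56% in jejunum of mouse 2. The last cells inside the high-share limit had shares of 6.990%, 6.924%, 5.114% and 5.442% in the same order, and the first cells outside it had 6.989%, 6.923%, 5.111% and 5.435%. Shares thus formed a continuous tail, and the limit lay higher in both ileum libraries than in both jejunum libraries. The median high-share enterocyte had a share of 8.01%, 8.05%, 6.55% and 6.80%, and the median low-share enterocyte 1.52%, 0.953%, 1.16% and 1.45%. In UMIs the median high-share enterocyte held 371 to 782 ribosomal protein molecules and the median low-share enterocyte 45 to 96.

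**Figure D1:**
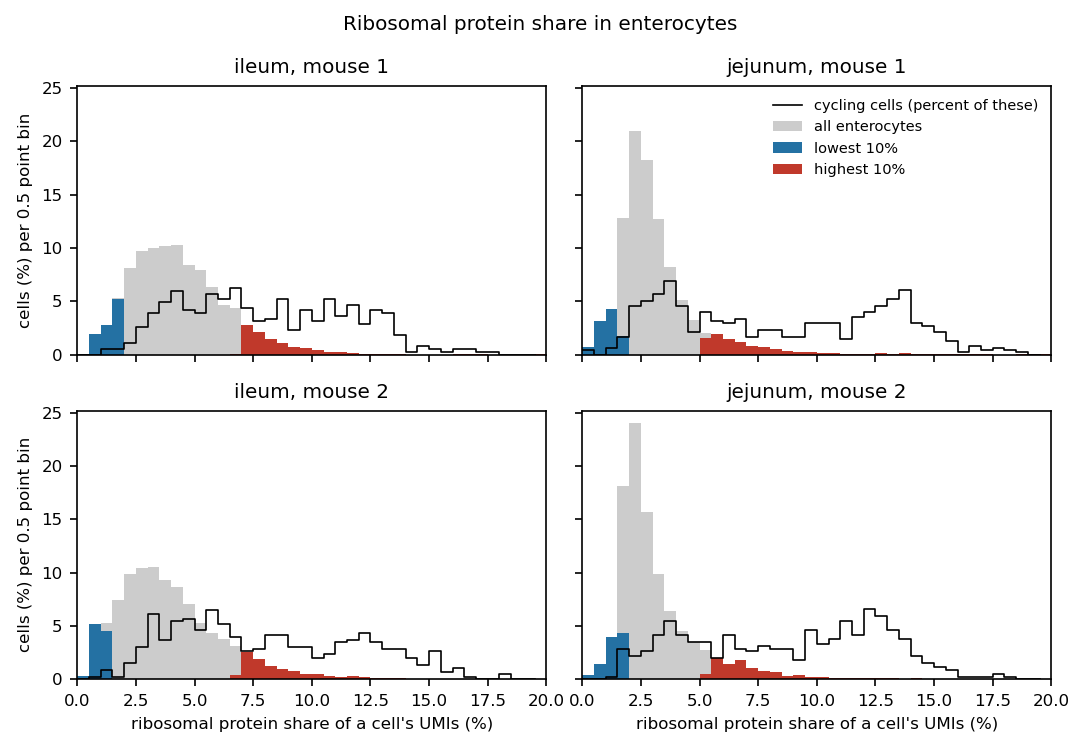
Share of a cell's UMIs from cytosolic ribosomal protein genes (x axis, percent) against percent of enterocytes per bin of 0.5 percentage points (y axis), 1 panel per library, with the lowest 10% in blue and the highest 10% in red. The black line gives cycling cells with enterocyte markers as percent of those cells; their medians, 7.56% to 9.21%, lie inside or beyond the red tail.

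The label names Rpl3 and Rps2, which encode a large and a small subunit protein and belong to the selecting genes. Rpl3 was detected in 87.7% to 94.3% of high-share and 27.6% to 52.2% of low-share enterocytes, and Rps2 in 72.1% to 85.1% and 26.2% to 44.9%. The cells also carried enterocyte RNA that the selection did not ask for. The 10 enterocyte markers outside the rule, among them Vil1, Anpep, Apob and Cubn, summed to 6045, 6535, 8997 and 10367 CPM in high-share enterocytes of ileum 1, ileum 2, jejunum 1 and jejunum 2 and to 7062, 8835, 11155 and 12744 CPM in low-share enterocytes. CPM are counts per 1000000 UMIs, here and below taken over UMIs outside the 83 selecting genes, so that the selection does not dilute other genes.

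The summed levels of markers of other cell types were as follows. The 8 goblet cell markers summed to 80 to 125 CPM against 246 to 464 CPM in low-share enterocytes, the 6 Paneth cell markers to 21 to 49 against 26 to 82 CPM, and the 6 stromal and endothelial markers to 4.37 to 11.5 against 6.96 to 10.8 CPM. Of the 8 goblet markers 4 were called lower and 4 were not called. Fcgbp was detected in 7.11% to 23.4% of high-share and 14.6% to 70.3% of low-share cells. Spdef was detected in 0.395% to 1.60% and 0.526% to 1.37%. The 10 enteroendocrine markers stood at 48, 54, 160 and 168 CPM in high-share and 72, 46, 54 and 44 CPM in low-share enterocytes of ileum 1, ileum 2, jejunum 1 and jejunum 2, so that they were higher by 2.98 and 3.83 times in both jejunum libraries and lower in ileum 1, and 4 of 9 tested were called higher and 1 lower. Their part in the results was not tested. Of the immune markers, the 8 genes summed to 12.1 to 48.4 CPM against 2.21 to 3.11 CPM, and 1.97% to 4.26% of high-share cells held at least 1 such UMI against 0.998% to 1.82% of low-share cells. The pan-leukocyte gene Ptprc was seen in 0.91% to 2.58% of high-share and 0.30% to 0.66% of low-share cells, at median depths of 4854 to 8726 and 4191 to 7593 UMIs. The part of immune RNA in the results was not tested gene by gene; without every cell that held an immune marker UMI, 7158 genes were called in the comparison below in place of 7225. All 6 immune markers tested were higher in high-share enterocytes (median 4.03 on the log2 scale). The tuft cell list reached 130 to 156 CPM against 41 to 54 CPM, of which Pou2f3 made up most, while Trpm5 and Il25 were detected in at most 0.13% of high-share cells of any library.

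Cycling cells with enterocyte markers, which the rule leaves out, numbered 1779. Their median share was 7.67%, 7.56%, 8.30% and 9.21% in ileum 1, ileum 2, jejunum 1 and jejunum 2, and 53.3% to 71.5% of them lay above the high-share limit of their library. The high-share enterocytes held less of 2 stem cell markers than these cells. Olfm4, a marker of crypt base stem cells, stood at 26.9, 55.6, 205 and 169 CPM in high-share enterocytes and at 599, 375, 1468 and 1668 CPM in the cycling cells. Lgr5, the stem cell receptor for R-spondins, stood at 6.82 to 18.8 CPM and 79.6 to 134 CPM. The 7 ribosomal proteins that the pattern misses went in 2 directions by region. In ileum 1 and ileum 2 they summed to 10373 and 11272 CPM in high-share enterocytes and to 10122 and 10252 CPM in cycling cells. In jejunum 1 and jejunum 2 they summed to 9238 and 9816 CPM in high-share enterocytes and to 12042 and 12431 CPM in cycling cells. Genes that build ribosomes summed to 2345 to 2770 CPM in high-share enterocytes and 3617 to 5310 CPM in cycling cells. Genes known from the lower villus went the other way, with 2526 to 3017 CPM and 1613 to 2598 CPM. These are levels without a test.

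Of the 83 selecting genes, 78 had a mean of at least 50 CPM of all UMIs over the enterocytes, and each of the 78 was higher in high-share than in low-share enterocytes of all 4 libraries, which the selection favours by construction. The 5 below that level were Rpl3l, Rpl10l, Rpl39l, Rps19bp1 and Rps23rg1, which the pattern catches by name. The mean log2 ratio had a median of 2.71, with its quartiles at 2.46 and 3.06 and with 57 of the 78 within 0.5 of the median. The 10 most abundant genes supplied 24.4% of the selecting UMIs, so that most of the share came from the other genes.

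The genes did not rise by equal amounts. Among the largest ratios were those of Rps19 (3.86 ± 0.32, SD over 4 libraries, log2 scale), Rpl36a (3.64 ± 0.28), Rpl39 (3.62 ± 0.35) and Rps23 (3.51 ± 0.42). Rps19, a small subunit protein, stood at 988, 1037, 841 and 990 CPM of all UMIs in high-share and at 90.8, 56.7, 51.8 and 71.8 CPM in low-share enterocytes. Among the smallest ratios were those of Rpl7l1 (1.48 ± 0.12), Rpl28 (1.53 ± 0.42), Rpl13a (1.60 ± 0.62) and Rpl22l1 (1.65 ± 0.25). Rpl13a stood at 1438, 1390, 1697 and 1573 CPM in high-share and still at 412, 278, 643 and 867 CPM in low-share enterocytes, where it was detected in 76.8% to 93.0% of cells. Rpl7l1 and Rpl22l1 are relatives of ribosomal proteins and not standard subunits.

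**Figure D2:**
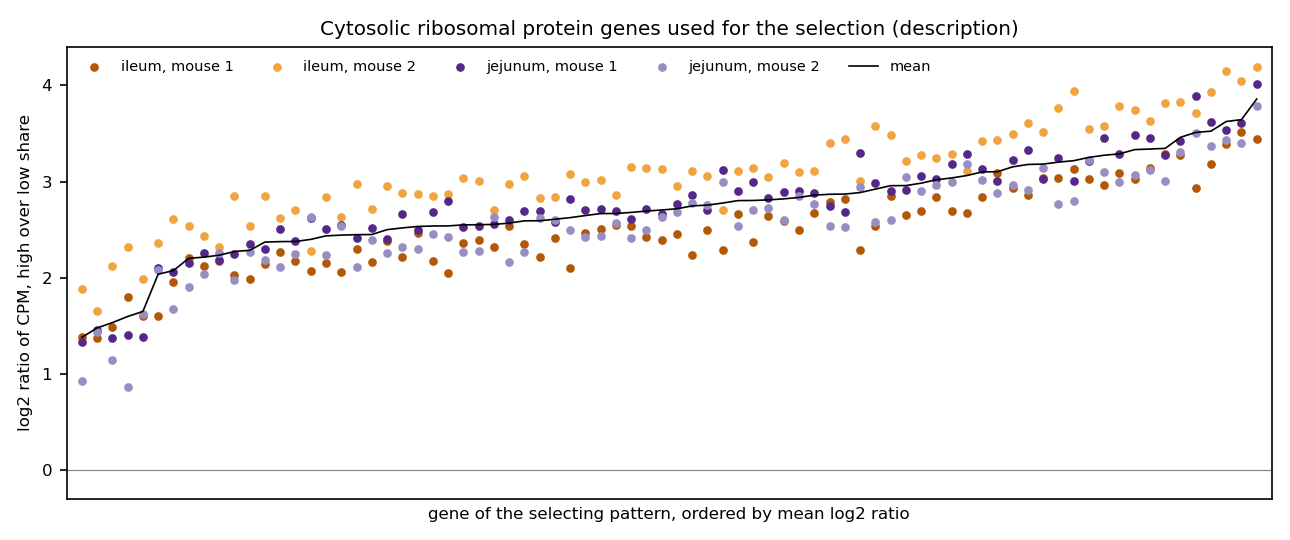
Log2 ratio of CPM of all UMIs, high-share over low-share enterocytes (y axis), for the 78 selecting genes with at least 50 CPM, ordered by their mean (x axis); points are the 4 libraries and the line is the mean. The ratios have a median of 2.71, reach 3.86 for Rps19 and are above 0 in every library, as the selection on these genes makes likely.

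Whether other messages of the translation machinery moved with the selecting genes was asked with genes outside the pattern. High-share and low-share sums of the 4 libraries were compared within library by the quasi-likelihood test of edgeR. Of 13691 genes tested, 7225 (52.8%) passed an adjusted p of 0.05, 3700 (27%) higher and 3525 (25.7%) lower in high-share enterocytes, and all counts of genes below stand against these shares. Among the called genes 1973 were higher and 1146 lower by over 1 on the log2 scale. With library totals in place of TMM scaling, 4440 were higher and 2719 lower, 62.0% higher in place of 51.2%, as the median of all genes moved from -0.01 to 0.13 on the log2 scale. With the library as a block, the p-values measure how far the difference within a library varied over the 4 libraries. These stem from 2 mice, so that is not a spread between independent animals, and part of it may be technical. Without the library as a block 4804 genes were called, and the calls of Hmgcs1, Sqle, mt-Atp6, Dab2, Ephb3, Mgam, Cd36, Krt20, Pigr, Nt5e, Sprr2a2 and Ap2s1 were among those lost (adjusted p from 0.0552 for Ap2s1 to 0.372 for Hmgcs1, edgeR). Among the groups below, the count without the block was 4 of 13 lower for mitochondrially encoded RNA, 4 of 21 higher for cholesterol synthesis, 2 higher and 3 lower of 14 for brush border hydrolases, 2 lower of 15 for fat uptake, and 2 higher and 9 lower of 21 for apical endocytosis.

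All 7 ribosomal proteins, or genes fused to one, whose symbols the pattern misses were higher in high-share enterocytes, with a median log2 difference of 2.46. Rack1, a scaffold on the small subunit, stood at 1443, 1610, 1173 and 1253 CPM in high-share enterocytes of ileum 1, ileum 2, jejunum 1 and jejunum 2 and at 169, 145, 116 and 142 CPM in low-share enterocytes. Its log2 difference was 3.12 ± 0.13 (SE; adjusted p = 8.05e-07, edgeR), and the groups did not overlap. Rplp2, a protein of the stalk that binds elongation factors, stood at 1541, 1606, 1278 and 1122 CPM against 207, 160, 157 and 155 CPM, a difference of 2.89 ± 0.14. Rpsa (2.81) and Rplp1 (2.25) lay between these and Rplp0 (1.89) and Fau (1.41). These genes are of the same class as the selecting genes, so their rise is close to the selection.

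All 5 elongation factors tested were higher, from Eef2 (0.96 ± 0.13) to Eef1b2 (2.54 ± 0.14), with a median of 1.83. Eef1a1, which brings charged tRNA to the ribosome, stood at 3775, 3725, 3456 and 2985 CPM against 1143, 938, 805 and 962 CPM (1.72 ± 0.15). All 6 other messages known for a TOP tract rose too, from Pabpc1 (0.60 ± 0.11), the poly(A) binding protein, to Nap1l1 (1.95 ± 0.21), a histone chaperone. Tpt1, a growth-related protein with a classic TOP message, rose by 1.57 ± 0.17 on the log2 scale. Initiation factors moved less evenly, with 23 of 33 higher, 1 lower and a median of 0.74.

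The start of a TOP message is where its regulation is read. Annotated starts are therefore shown for the genes outside the pattern with a tract exactly at the start and for 4 abundant selecting genes with one. The choice of these 4 did not cover all chromosomes. Each line gives 15 bases before and 15 bases from the RefSeq start (GRCm38.p6), 5′ to 3′ on the gene's strand, with the tract in capitals.
Rack1 (chr11:48800345-48800374, plus strand): cggaggccgctctttCTTTTTCTCCacagg
Rplp2 (chr7:141447636-141447665, plus strand): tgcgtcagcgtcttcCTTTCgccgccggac
Fau (chr19:6057932-6057961, plus strand): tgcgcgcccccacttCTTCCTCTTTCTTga
Nap1l1 (chr10:111473212-111473241, plus strand): ggcgggctctcgggtCTTTTTTagcgccat
Rpl28 (chr7:4792950-4792979, plus strand): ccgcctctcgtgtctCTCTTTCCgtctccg
Rps10 (chr17:27635230-27635259, minus strand): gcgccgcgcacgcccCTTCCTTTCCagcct
Rpl38 (chr11:114668565-114668594, plus strand): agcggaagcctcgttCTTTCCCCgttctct
Rps27 (chr3:90213634-90213663, minus strand): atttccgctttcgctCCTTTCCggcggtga

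A tract was counted where a C was followed by at least 4 bases that were C or T, on the gene's strand only. It began exactly at the start in 13 of 76 promoters of the 64 selecting genes found in the RefSeq table (17.1%) and in 4 of 14 promoters of translation genes outside the pattern (28.6%), against 823 of all 32851 promoters (2.51%). Within 5 bases of the start the shares were 42.1%, 42.9% and 18.3%. Among genes outside the pattern the motif did not follow the direction of change: it stood at the start in 2.38% of promoters of genes called higher, 2.29% of those called lower and 2.21% of those not called. A RefSeq start need not be the start used in these cells, and Rpl3 was not among the genes matched.

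Genes that build ribosomes were also higher. Of 55 assembly factors and RNA polymerase I genes, 49 rose, none fell and the median was 0.95. Nop16, a nucleolar assembly factor, stood at 17.7, 17.4, 15.7 and 12.8 CPM against 2.32, 1.41, 1.67 and 1.31 CPM, a log2 difference of 3.09 ± 0.23. Npm1 (nucleophosmin) rose by 1.86 ± 0.12, Ncl (nucleolin) by 1.47 ± 0.11 and Fbl (fibrillarin, which methylates ribosomal RNA) by 2.32 ± 0.15 on the log2 scale. Myc, a transcription factor that drives ribosome production, stood at 41.1, 23.2, 22.8 and 25.4 CPM against 6.43, 3.01, 3.83 and 3.61 CPM (2.60 ± 0.16). Of 10 noncoding hosts of small nucleolar RNAs, 8 rose, among them Gas5 (2.30 ± 0.13), itself a TOP transcript.

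Mitochondrial genes split by the genome that encodes them. All 78 nuclear genes of the mitochondrial ribosome were higher in high-share enterocytes, by 0.52 to 2.65 with a median of 1.35 on the log2 scale, and 75 of 80 nuclear genes of the respiratory chain rose while 1 fell (median 1.28). Mrps24, a small subunit protein of the mitochondrial ribosome, stood at 115, 137, 116 and 94.3 CPM against 33.2, 20.9, 16.5 and 22.6 CPM. Cox7a2, a subunit of cytochrome oxidase, stood at 419, 459, 502 and 590 CPM against 140, 113, 139 and 235 CPM (1.55 ± 0.14). All 13 transcripts of the mitochondrial genome were called lower, by 0.64 to 1.13 on the log2 scale, but these transcripts are in the denominator of the share that chose the cells. With the share taken over non-mitochondrial UMIs 11 of 13 were called lower (median -0.67), and mt-Atp6 was not (-0.48, adjusted p = 0.0697, edgeR). For mt-Co1, which encodes the catalytic core of the same oxidase, the levels were 2949, 2495, 3763 and 5479 CPM in high-share and 5044, 6286, 6321 and 7322 CPM in low-share enterocytes, so the groups overlapped across libraries while each library went the same way. When the tails were taken within 10 bins of UMIs per cell, 7 of the 13 were called lower (median -0.46), and mt-Atp6 was not (adjusted p = 0.0983, edgeR). The call of mt-Atp6 was also lost without ileum of mouse 2 (adjusted p = 0.077) and without jejunum of mouse 1 (adjusted p = 0.0706).

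Outside these groups the genes with the largest rise were Krt19, Ccnd2, Ms4a18, Ifitm2, Ucp2, Cldn15, S100g, Cth, Aldh1a1, Ccl25, Ppp1r1b and Mt2. Krt19, a keratin of simple epithelia, stood at 237, 405, 282 and 494 CPM in high-share and 8.92, 7.64, 10.5 and 15.4 CPM in low-share enterocytes. Its log2 difference of 4.90 ± 0.18 was the largest among these genes (adjusted p = 5.98e-07, edgeR). Ccnd2, a cyclin of the G1 phase, stood at 215, 267, 217 and 322 CPM against 11.1, 10.0, 12.7 and 19.3 CPM (4.15 ± 0.15). In neither gene did the high-share and low-share groups overlap. In the cycling cells that the rule leaves out, Krt19 stood at 405, 386, 577 and 729 CPM. Ccnd2 stood there at 874, 745, 901 and 1168 CPM.

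Several of these genes serve transport or defence. S100g, the calcium binding protein calbindin-D9k, stood at 679, 405, 401 and 357 CPM against 61.0, 16.5, 20.3 and 26.9 CPM (3.86 ± 0.19). Cldn15, a claudin that makes sodium pores between enterocytes, stood at 38.8, 93.2, 128 and 175 CPM against 2.14, 2.61, 10.5 and 12.1 CPM (3.93 ± 0.21). Mt2, a metal binding metallothionein, was higher in each library (3.57 ± 0.25) but its level went with the mouse. In high-share enterocytes it stood at 57.7 and 48.1 CPM in ileum and jejunum of mouse 1 and at 691 and 723 CPM in those of mouse 2. Mouse, labelled sex and batch cannot be told apart for it, and Mt2 and Aldh1a1 (retinaldehyde dehydrogenase) overlapped between the groups across libraries. Ifitm2 has close relatives that could share its reads.

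Genes known from the lower villus of adult mice were higher in 6 of the 8 tested. The other 2 were not called, and the log2 differences of the 8 ran from -1.04 to 3.71. Ccl25, the chemokine that draws CCR9-bearing lymphocytes to the small intestine, stood at 324, 434, 474 and 669 CPM against 18.2, 17.7, 45.2 and 64.2 CPM (3.71 ± 0.22). Lypd8, a secreted protein that keeps bacteria off the epithelium, stood at 1816, 1675, 1500 and 1194 CPM against 195, 122, 153 and 108 CPM (3.30 ± 0.15). In both genes the groups did not overlap. Pigr, which carries IgA across the cell, rose by 2.54 ± 0.27, and Nlrp6, an inflammasome sensor, by 2.30 ± 0.16 on the log2 scale. Of 6 villus tip genes tested, Nt5e, Klf4 and Egfr fell, Krt20 rose (1.74 ± 0.23) and 2 were not called. The tip list summed to 795, 849, 1314 and 1305 CPM against 1362, 1141, 1228 and 1208 CPM. Its sum was thus lower in both ileum libraries and slightly higher in both jejunum libraries. Nt5e, which makes adenosine, was not called without ileum of mouse 1 (adjusted p = 0.0562, edgeR). Nor was it called in the highest and lowest 5% (adjusted p = 0.138, edgeR). It was detected in 1.82%, 2.89%, 1.29% and 2.00% of high-share and 16.4%, 4.21%, 1.42% and 2.20% of low-share cells.

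Crypt genes rose from a low level. Of 18 crypt stem and progenitor markers tested, 12 rose and 2 fell, with a median of 1.62. Olfm4 rose by 3.36 ± 0.19 on the log2 scale from 2.68, 3.01, 15.5 and 21.0 CPM in low-share enterocytes, and Sox9, a progenitor transcription factor, stood at 65.7, 72.4, 80.7 and 83.1 CPM against 7.32, 14.9, 8.85 and 10.5 CPM (2.73 ± 0.17). Axin2, a target and brake of Wnt signalling, went the other way with 16.8, 15.7, 22.8 and 13.4 CPM against 52.3, 48.4, 33.0 and 23.3 CPM (-1.32 ± 0.19). The other gene that fell was Ephb3, at no more than 3.40 CPM in high-share enterocytes. Of 22 replication genes 15 rose and 1 fell, and of 17 mitotic genes outside the rule 10 rose and none fell. Exactly 1 cycling gene of the rule was detected in 21.4% to 28.3% of high-share and 7.37% to 11.8% of low-share enterocytes.

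Every cell with a UMI of 1 of 7 stem and progenitor markers was then left out and the tails were taken again, which sets these markers to 0 by construction, so the crypt list is not read there. Such a UMI was held by 32.2%, 36.7%, 48.3% and 40.5% of high-share enterocytes of ileum 1, ileum 2, jejunum 1 and jejunum 2. Among low-share enterocytes 37.8%, 34.5%, 29.2% and 33.5% held one. The filter thus took out many low-share cells too, and the part of crypt cells in the other groups was not tested. The replication list had 5 of 18 tested genes higher. When 5 enterocyte markers and no cycling gene were required, Lgr5 was no longer called (0.15, adjusted p = 0.715, edgeR). Other groups kept most of their calls without the stem-marked cells: the ribosomal proteins outside the pattern kept 7 of 7 higher (median 2.47), the mitochondrial ribosome 78 of 78 (1.33), the lower villus list 6 of 8 (2.06), and the lysosome list 42 of 51 lower and 2 higher (-0.90). In all, 5959 of the 7225 calls (82.5%) were shared.

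**Figure D3:**
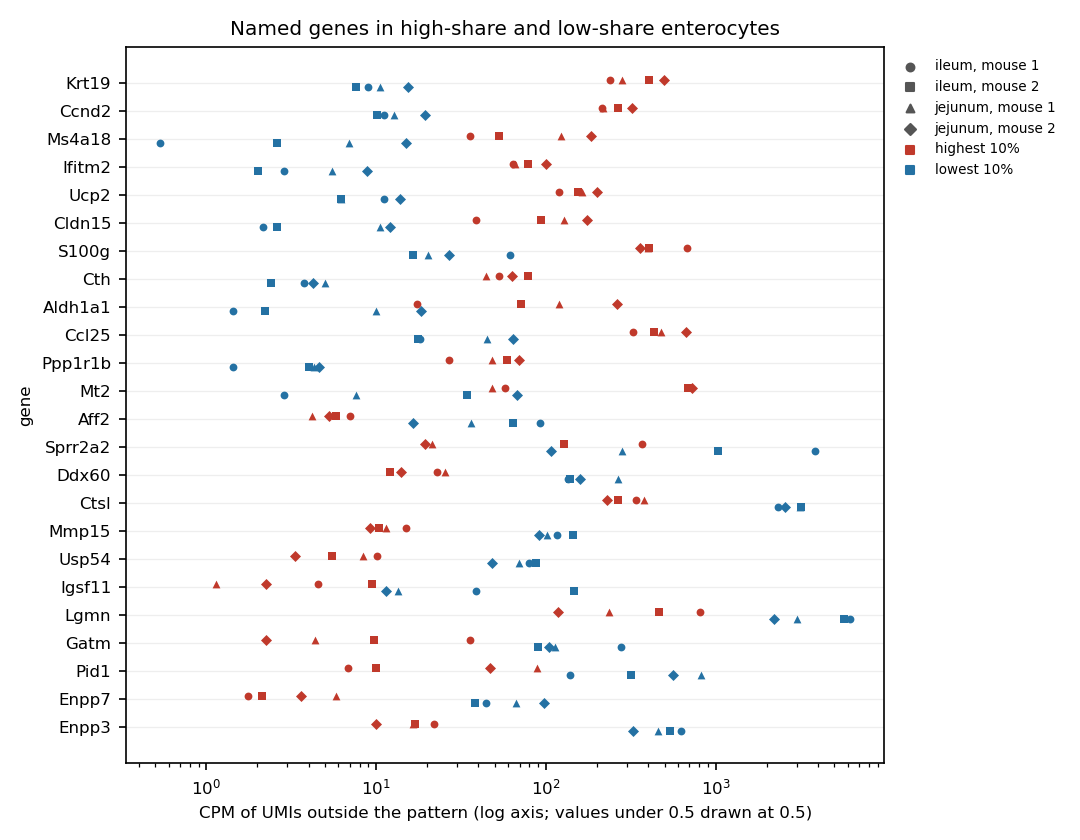
Level of the 12 genes with the largest rise and the 12 with the largest fall in CPM of UMIs outside the selecting genes (x axis, log scale), in high-share (red) and low-share (blue) enterocytes; each symbol is 1 library. For 21 of the 24 genes the red and blue symbols do not overlap, while Aldh1a1, Mt2 and Sprr2a2 overlap across libraries. The genes were picked among called genes with at least 50 CPM in 1 group and the same direction in each library. That choice favours groups that do not overlap, and the share over all tested genes was not counted.

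Under the same limits of level and direction, the genes with the largest fall were Enpp3, Enpp7, Pid1, Gatm, Lgmn, Igsf11, Usp54, Mmp15, Ctsl, Ddx60, Sprr2a2 and Aff2. Enpp3, an enzyme at the cell surface that splits extracellular nucleotides, stood at 21.8, 16.8, 16.5 and 10.0 CPM in high-share and 626, 536, 458 and 326 CPM in low-share enterocytes, a log2 difference of -5.04 ± 0.13 (adjusted p = 6.1e-08, edgeR). Enpp7, the alkaline sphingomyelinase that digests milk sphingomyelin, stood at 1.75, 2.12, 5.82 and 3.63 CPM against 44.6, 38.0, 67.0 and 97.3 CPM (-4.30 ± 0.20). Gatm, the first enzyme of creatine synthesis, stood at 35.7, 9.76, 4.37 and 2.23 CPM against 275, 90, 113 and 104 CPM (-3.85 ± 0.32). All 3 were lower in each library without overlap. Sprr2a2, whose reads near-identical copies could share, ran from 19.5 to 368 CPM against 108 to 3870 CPM, with both ileum libraries above both jejunum libraries within each group.

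Lysosomal genes were lower almost throughout: of 51 tested, 44 fell and none rose, with a median of -0.96. Lgmn (legumain, the lysosomal asparaginyl endopeptidase) stood at 809, 461, 234 and 119 CPM in high-share enterocytes of ileum 1, ileum 2, jejunum 1 and jejunum 2 and at 6176, 5687, 2998 and 2212 CPM in low-share enterocytes (-3.75 ± 0.23). Ctsl (cathepsin L, an endopeptidase) stood at 340, 266, 378 and 230 CPM against 2340, 3177, 3145 and 2562 CPM (-3.36 ± 0.18). Ctsb (cathepsin B) fell by 1.46 ± 0.14 and Lamp1, a membrane protein of the lysosome, by 0.89 ± 0.15 on the log2 scale. The summed level of the list was 17085, 16183, 11738 and 9116 CPM in high-share and 34375, 37583, 25545 and 25804 CPM in low-share enterocytes.

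The endocytic genes that feed the lysosome changed in 2 directions. Of 21 apical endocytosis genes, 14 fell and 3 rose, with a median of -0.49. Cubn, the receptor cubilin, stood at 303, 288, 170 and 61.1 CPM against 588, 730, 513 and 273 CPM (-1.63 ± 0.18), and its adaptor Dab2 at 724, 600, 337 and 128 CPM against 1066, 893, 584 and 448 CPM (-1.05 ± 0.21). In both genes the groups overlapped across libraries, with jejunum below ileum in each group. Lrp2, the receptor megalin, fell in 3 of 4 libraries (-3.24 ± 0.37) and in jejunum of mouse 2 stood at 1.67 against 0.656 CPM. The 3 genes that rose were subunits of the clathrin coat and its AP-2 adaptor: Clta (0.64 ± 0.12), Ap2s1 (0.64 ± 0.16) and Ap2m1 (0.53 ± 0.11), the last of which was not called with tails taken within 10 bins of UMIs per cell (adjusted p = 0.0536, edgeR).

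Digestive and absorptive genes were mixed. Of 14 brush border hydrolases outside the rule, 7 fell and 4 rose. Ace, a dipeptidyl carboxypeptidase, stood at 77.2, 79.7, 276 and 172 CPM against 692, 948, 1533 and 1507 CPM (-3.22 ± 0.18), whereas Anpep, aminopeptidase N, stood at 767, 1023, 1889 and 2785 CPM against 152, 513, 451 and 691 CPM (1.71 ± 0.21). Mgam, a maltase, rose by 0.92 ± 0.17 on the log2 scale. Of 12 microvillus structure genes 6 fell and 1 rose, and of 15 fat uptake and chylomicron genes outside the rule 6 fell and 3 rose. Apob, the core protein of the chylomicron, stood at 675, 786, 1410 and 1257 CPM against 1963, 2977, 3008 and 2409 CPM (-1.51 ± 0.18). Cd36, a fatty acid translocase, fell by 2.98 ± 0.18 on the log2 scale and was at most 33.5 CPM in high-share enterocytes.

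Cholesterol synthesis genes rose in 15 of 21 and none fell (median 0.80), though 4 of 21 were called without the library as a block. Mvd, a decarboxylase of the mevalonate pathway, stood at 83.9, 86.7, 24.1 and 14.2 CPM against 18.2, 9.85, 9.09 and 4.59 CPM (2.10 ± 0.25), higher in each library. Of 16 genes of protein folding and secretion in the endoplasmic reticulum, 13 rose and none fell (median 0.58). The integrated stress response list held 3 genes that rose and 4 that fell of 9 tested, and Atf4, its central transcription factor, differed by 0.21 ± 0.11 (adjusted p = 0.127, edgeR). Among 19 genes induced by dissociation and heat, 7 rose and 1 fell, with a median of 0.20. Nuclear noncoding RNAs fell in 5 of 7 (median -0.64): Malat1 stood at 1163, 937, 1005 and 1194 CPM against 3309, 1936, 2730 and 1955 CPM (-1.32 ± 0.16).

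The change along the whole range of shares was described by sorting the enterocytes of each library into 10 equal bins, from bin 1 with the lowest share to bin 10 with the highest. The ribosomal proteins outside the pattern rose at each step in all 4 libraries. The crypt list stood at 198, 234, 297 and 381 CPM in bin 1 and at 220, 217, 280 and 319 CPM in bin 9. Bin 9 was thus above bin 1 only in ileum 1. At the last step the list rose in each library, to 348, 437, 722 and 679 CPM in bin 10. The lysosome list did not peak in the low-share cells: it was highest in bin 3 in both ileum libraries, at 39986 and 41984 CPM, and in bin 2 in both jejunum libraries, at 31914 and 29281 CPM. Mitochondrially encoded RNA was highest in bin 1 in each library and lowest in bin 7, 8 or 9.

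**Figure D4:**
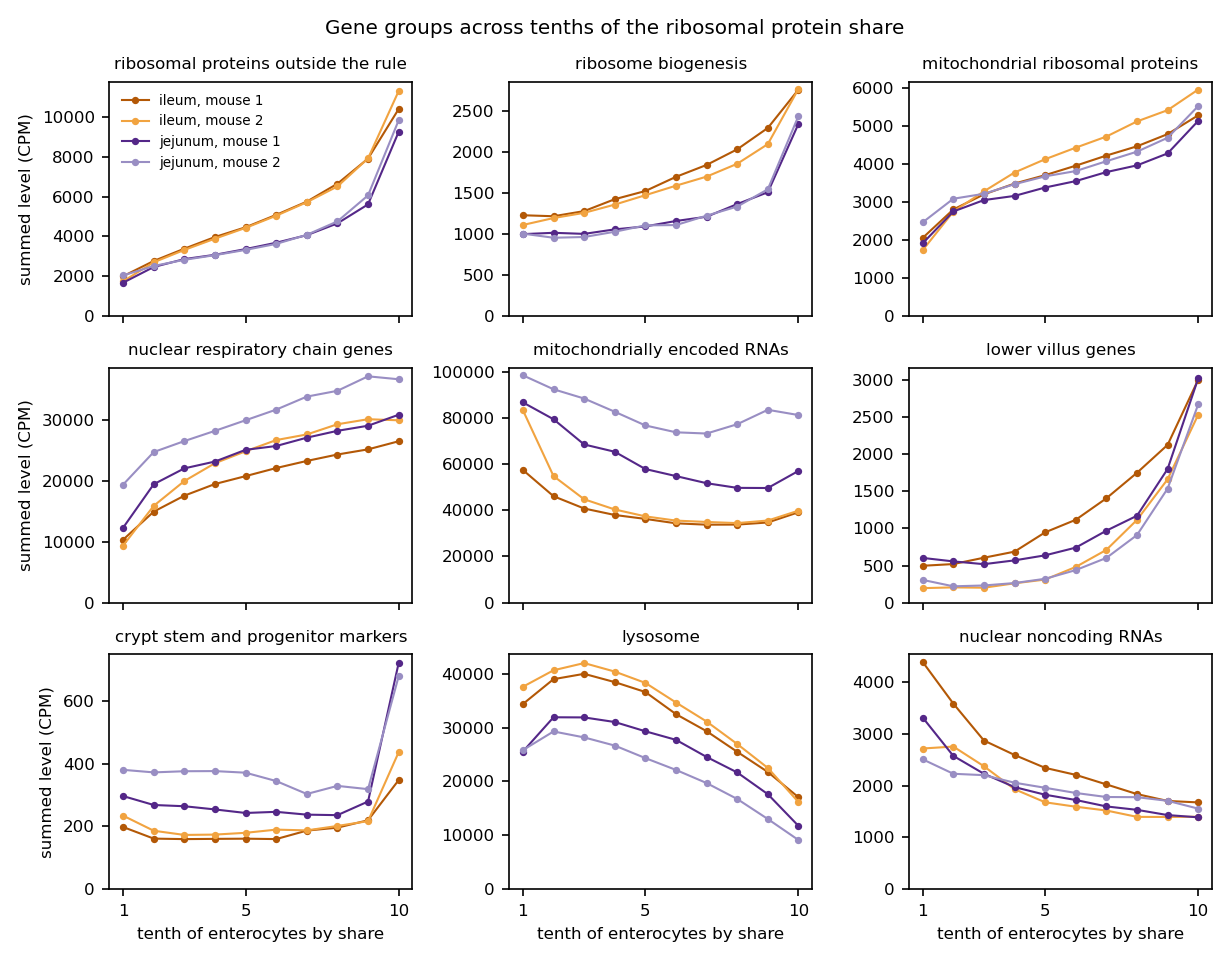
Summed CPM of UMIs outside the selecting genes (y axis) for 9 gene groups across 10 equal bins of enterocytes by ribosomal protein share (x axis, 1 lowest, 10 highest), 1 line per library. Crypt markers rise at bin 10, while the lysosome group is highest in bin 2 or 3 and falls to 9116 to 17058 CPM in bin 10.

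Measures of the cells themselves were compared over the 4 libraries by an exact sign-flip permutation test, two-sided, whose smallest possible p is 0.13, so that none could reach 0.05. The median UMIs per cell were 7470, 8726, 5720 and 4854 in high-share and 7593, 6277, 4191 and 5100 in low-share enterocytes of ileum 1, ileum 2, jejunum 1 and jejunum 2, higher in 2 and lower in 2 libraries (exact p = 0.5, 0.5 after adjustment over 3 measures). In both ileum libraries each tail lay below the median of all enterocytes, 13294 and 11738 UMIs. The median mitochondrial share of UMIs outside the pattern was 3.82%, 3.77%, 6.06% and 10.5% against 5.76%, 8.29%, 9.65% and 10.8%, lower in all 4 libraries by 2.57 ± 1.88 percentage points on average (SD, n = 4; exact p = 0.13, adjusted 0.188). Mitochondrial UMIs are in the denominator of the selecting share. With that share taken over non-mitochondrial UMIs the mean difference was -1.17 percentage points (exact p = 0.5), and with tails within 10 bins of UMIs per cell it was -1.23 (exact p = 0.25). Jejunum of mouse 2 then turned, to 12.2% in high-share against 9.06% in low-share cells in the first case, and it turned in 7 of 10 other selections of cells in all, while the other libraries turned in none. Thinned to 2000 UMIs outside the pattern, high-share cells held 1383, 1387, 1310 and 1263 genes and low-share cells 1310, 1296, 1229 and 1202 genes on average, 76.5 ± 12.6 more in high-share cells (exact p = 0.13, adjusted 0.188). Without thinning the medians were 3282, 3649, 2623 and 2341 against 3307, 2917, 2095 and 2331 genes. Thinning left out 20 to 30 high-share and 1 to 5 low-share cells of a library.

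Region was compared within the high-share enterocytes, 2 ileum against 2 jejunum sums. Of 13200 genes 1066 (8.08%) were called, 493 (3.73%) higher in ileum and 573 (4.34%) higher in jejunum. With the mouse as a block, which pairs the 2 regions of an animal, 1756 were called, 1056 of them shared. With library totals in place of TMM scaling 651 were higher in ileum and 502 in jejunum, 56.5% toward ileum in place of 46.2%, as the median of all genes moved from -0.01 to 0.10 on the log2 scale. Leaving out ileum of mouse 1 gave 675 calls and leaving out jejunum of mouse 1 gave 1803. None of the 7 ribosomal proteins outside the pattern, the 5 elongation factors or the 78 genes of the mitochondrial ribosome was called between regions by edgeR, where 0, 0 and 4 of them had an unadjusted p under 0.05 and DESeq2 called 0, 0 and 1.

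Toward the ileum the largest difference was that of Fabp6, the ileal bile acid binding protein, which stood at 691 and 927 CPM in ileum and at 0.647 and 0 CPM in jejunum (4 and 0 UMIs; adjusted p = 0.0002, edgeR). Scd2, a fatty acid desaturase, stood at 636 and 357 CPM against 2.27 and 0.558 CPM (8.15 ± 0.48). Afp (alpha-fetoprotein), Reg3b (an antimicrobial lectin with the close copy Reg3g) and Cldn8 (a sealing claudin) followed at 4.80 ± 0.45, 4.47 ± 0.79 and 4.19 ± 0.66. Reg3b was not called in the highest 20% of cells (adjusted p = 0.087, edgeR). Cholesterol synthesis genes were higher in ileum in 19 of 21 (median 1.74), led by Sqle (squalene epoxidase, 2.91), and lysosomal genes in 17 of 51 against 2 lower.

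Toward the jejunum the largest differences were those of Cym, Mfsd2a, Onecut2, Fam13a and Ctrb1, leaving aside Fabp1. Cym, the milk-clotting protease chymosin, stood at 41.4 and 212 CPM in jejunum and 0.175 and 0.990 CPM in ileum (-7.72 ± 1.04). Mfsd2a, a transporter of lysophospholipids, stood at 68.8 and 228 CPM against 0.350 and 1.70 CPM (-7.17 ± 0.79). Fabp1, the liver-type fatty acid binding protein, is a marker of the rule, so its values are given as a description without a test. It stood at 6152 and 6134 CPM against 33.2 and 151 CPM. Of 18 crypt markers tested, 7 were higher in jejunum and none in ileum. All 6 mitochondrially encoded genes called between regions were higher in jejunum. The mitochondrial share of cells, higher there too, is made of the same transcripts and is no separate observation.

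Whether the difference between high-share and low-share enterocytes itself differed between regions was tested as an interaction. It was called for 110 of 13691 genes (0.803%), 67 toward ileum and 43 toward jejunum by edgeR. This balance did not hold across alternatives: it was 97 and 165 in the outer 20%, 179 and 224 with tails within 10 bins of UMIs per cell, 83 and 107 without the 5% of cells with the most UMIs, and 122 and 167 without ileum of mouse 2. Leaving out 1 library gave 51 calls without jejunum of mouse 2 and 413 without jejunum of mouse 1, with 167 without ileum of mouse 1 and 289 without ileum of mouse 2. Without the stem-marked cells 19 were called, 7 toward ileum and 12 toward jejunum. None of the 7 ribosomal proteins outside the pattern, the 78 genes of the mitochondrial ribosome or the 13 mitochondrially encoded genes was among the 110. For lists of this size 0 calls lies near the 0.803% of all genes. At an unadjusted p under 0.05 (edgeR) there were 0, 11 and 2 of them, a share not counted over all genes, and DESeq2 called none. Their median interactions were 0.23, 0.30 and -0.37 on the log2 scale, against 0.04 for all genes.

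Fabp6 was higher in high-share than in low-share cells of the ileum, at 691 and 927 against 40.2 and 49.6 CPM, while jejunum held 0 to 4 UMIs in any group, too few to show a difference there. Its call (4.99 ± 1.08, adjusted p = 0.0418, edgeR) was lost with the mouse as a block (adjusted p = 0.0631) and in 13 of 21 alternatives in all, and without jejunum of mouse 1 its value was 9.02. Fabp1 is a marker of the rule, so its values helped to admit the cells and are given as a description. It was detected in 22.5% and 71.0% of all enterocytes of the ileum and in 99.4% and 99.5% of those of the jejunum. Its level went in opposite directions, lower in high-share cells of the ileum (33.2 and 151 against 88.5 and 573 CPM). In high-share cells of the jejunum it was higher (6152 and 6134 against 3408 and 4400 CPM). For this reason the interaction of Fabp1 is not read as a test. Rbp2, the cellular retinol binding protein, had the same form, with 171 and 215 against 671 and 509 CPM in ileum and 3262 and 3627 against 1868 and 2688 CPM in jejunum (interaction -2.17 ± 0.32, adjusted p = 0.00524, edgeR). Gpt, alanine aminotransferase, had the opposite form, with 8.21 and 13.3 against 2.86 and 8.04 CPM in ileum and 76.7 and 92.0 against 155 and 263 CPM in jejunum (2.33 ± 0.32).

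**Figure D5:**
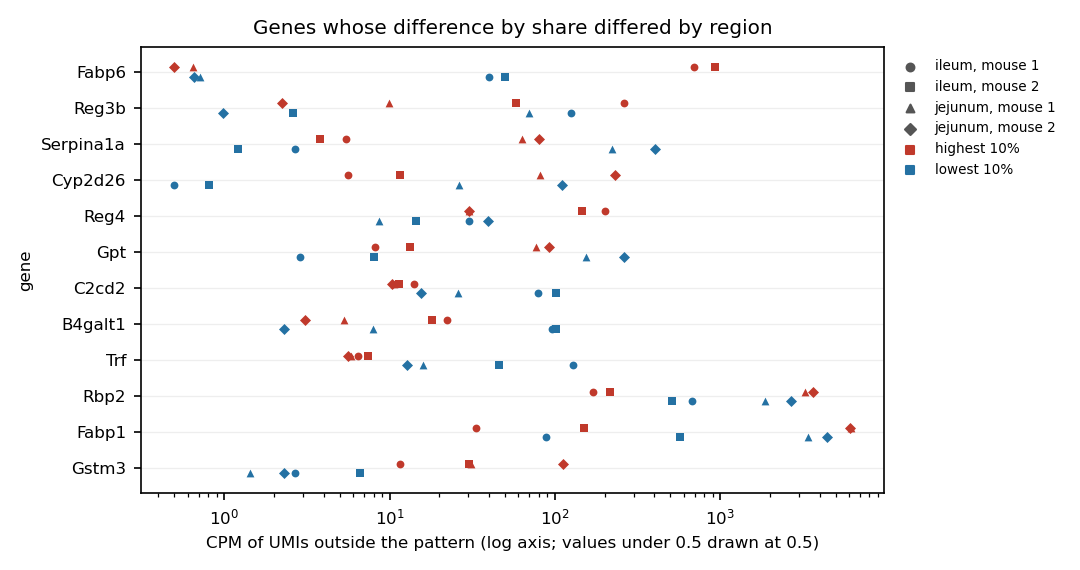
Level of the 12 named interaction genes in CPM of UMIs outside the selecting genes (x axis, log scale, values under 0.5 drawn at 0.5) in high-share (red) and low-share (blue) enterocytes; circles and squares are ileum, triangles and diamonds jejunum. For Fabp1, a marker of the rule, and Rbp2 red lies left of blue in ileum and right of blue in jejunum. Gpt and Serpina1a show the reverse.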

How the data were processed

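The authors captured dissociated epithelium with the PIPseq V T20 3′ kit and counted UMIs with PIPseeker; the deposited matrices hold raw UMI counts per gene and called cell, with GRCm39 named in the submitters' processing notes. The PIPseeker version and the annotation are not given in the sources used here. Ribosomal protein genes have many near-identical pseudogenes, so single values are uncertain. The members and gene lists were chosen with earlier results of these data known.

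Cells were selected by the rule given above, and no doublets were called. Counts were summed per library and group (high-share and low-share), and genes outside the selecting pattern were tested with edgeR 4.0.16 in R 4.3.3 (filterByExpr, TMM, quasi-likelihood test, Benjamini-Hochberg adjusted p under 0.05), with the library as a block for share, region alone for region, and both for the interaction. The fits were tested on simulated data. The regions pair by mouse, by their titles and the stated design, although the file names of mouse 1 give, in both regions, another animal number than its titles; the mouse difference correlated between regions with r = 0.21 across 13200 genes. List counts leave out the 11 marker genes of the rule. Named genes were the called genes with the largest change that reached 50 CPM in 1 group and changed the same way in each library or mouse, without predicted genes: 12 per direction for share and 6 for region and interaction, plus list members; some genes that the rule names are not reported here. DESeq2 1.42.0, other filters, scalings, tails and cell limits, and leaving out each library were tried. Python 3.11.15 and matplotlib 3.10.9 were used.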

Additional observations from a re-analysis of the deposited data

Results flagged for a closer look

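In 110 genes the difference between high-share and low-share enterocytes differed between ileum and jejunum by the interaction test of edgeR. The 12 named ones were as follows, with the interaction as the log2 difference in ileum minus that in jejunum. Fabp6 reached 4.99, on 0 to 4 UMIs in each jejunum sum, and 9.02 without jejunum of mouse 1, and 13 of 21 alternatives ended its call. Reg3b reached 4.48, but 6.90 without ileum of mouse 1 and 0.90 without jejunum of mouse 1 (adjusted p = 0.902, edgeR), where low-share cells held 69.6 CPM against 0.983 CPM in those of mouse 2. Serpina1a, which has near-identical copies, reached 3.37 and was lower in high-share cells of both jejunum libraries. Cyp2d26 reached 3.15, but 6.45 without ileum of mouse 2, and 4 alternatives ended its call, DESeq2 among them (adjusted p = 0.256). Reg4 reached 2.47, but 1.21 without jejunum of mouse 2 (adjusted p = 0.252, edgeR) and 0.79 without stem-marked cells (adjusted p = 0.754, edgeR), and 8 alternatives ended its call. Gpt reached 2.33 and kept its call in each alternative, as did Rbp2. Toward jejunum, Gstm3 had -2.91, Rbp2 -2.17, Trf -2.09, B4galt1 -1.94 and C2cd2 -1.77. Fabp1 had -2.30, which is only a description because Fabp1 is a marker of the rule. The adjusted p of Trf rounded to 0.05, just under the threshold (edgeR), and 12 alternatives ended its call; without ileum of mouse 1 its value was -1.24. The calls of B4galt1, Reg3b, Gstm3, C2cd2 and Serpina1a were ended by 6, 4, 3, 3 and 2 alternatives.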

How the results depend on the processing

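No result among the named genes turned its direction in 21 alternatives. Of 99 genes followed for share, 80 kept their call in every alternative that tested them. Some of the 99 were not tested in every alternative. For region 11 of 12 and for the interaction 2 of 12 kept their call in every alternative. For share, leaving out 1 library gave 5724 to 7268 calls and dropping the replicate block gave 4804. For region the replicate block gave 1756 calls, no filter on low counts 2377, tails within 10 bins of UMIs 1621, leaving out stem-marked cells 605, and leaving out 1 library 675 to 1803. For the interaction the replicate block gave 106, DESeq2 67, no filter 420, the outer 5% 33, the outer 20% 262, tails within 10 bins of UMIs 403, leaving out the 5% of cells with the most UMIs 190, stricter enterocyte limits 41, leaving out stem-marked cells 19, and leaving out 1 library 51 to 413. The difference in log2 median UMIs per cell turned to -0.11 in the outer 5% and to -0.016 with the share taken over non-mitochondrial UMIs. It ran from 0.12 to 0.30 when 1 library was left out. The cause of these changes was not tested. Leaving out stem-marked or immune-marked cells was chosen after seeing the data. Values of a few UMIs, such as those of Fabp6 in jejunum, are limited by depth, and the number of mice limits every test between regions.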

Other observations

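In the ileum libraries, 5.61% and 32.5% of high-share enterocytes held all 6 markers of the rule, against 18.5% and 65.7% of low-share enterocytes. In the jejunum libraries the shares were 73.4% and 70.5% against 91.6% and 94.6%. The 6 markers belong to the rule, so these are values without a test.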
